A study of Mus musculus with 4 samples.

Results

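The report describes the agouti gene (gene symbol a in the deposited gene lists) with 3 partners of melanocortin signalling, Atrn, Mc1r and Mc4r, in mouse mammary epithelium. The members were matched by symbol, and all 4 were found among the 52636 genes of every matrix. Agouti was chosen because its level in basal cells differed between libraries, so its levels are a description with no test. The partners were named for their known roles.

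Cells sorted for the surface protein EpCAM from mammary glands were profiled by sequencing of transcript 3′ ends with unique molecular identifiers (UMIs), in 4 libraries. All mice were raised to 6 months of age and carried estradiol and progesterone pellets. The WT vehicle and WT giredestrant libraries came from mice with wild-type estrogen receptor, and the Y541S vehicle and Y541S giredestrant libraries from mice with the receptor mutation Y541S, in which a tyrosine is replaced by serine. Vehicle (MCT) or 30 mg/kg of giredestrant, which blocks the estrogen receptor and promotes its degradation, was given by mouth each day for 4 days. Each group is 1 library and the number of animals in it is not given, so no difference below has a replicate check and no p-value is given. Intervals are exact 95% intervals and cover counting error only.

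Agouti encodes a secreted antagonist of melanocortin receptors and is best known from hair follicles, where it switches melanocytes from dark to yellow pigment. It acts at MC1R, the melanocortin receptor of melanocytes, and, when expressed outside the skin, at MC4R, the hypothalamic receptor that restrains food intake. Attractin, encoded by Atrn, is a membrane protein that agouti needs for its action on pigment. The mammary epithelium has a basal layer of contractile cells and a luminal layer of hormone-sensing cells, which carry the estrogen receptor, and secretory cells, which make milk proteins.

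In the GENCODE annotation of GRCm38, agouti lies on chromosome 2 from 154791402 to 155051012 on the plus strand. Atrn lies on chromosome 2 from 130906495 to 131030333 on the same strand. The RefSeq promoters (GRCm38.p6, 250 bases before to 50 after the start) of agouti and Atrn are shown. Agouti is the member whose level differed most between libraries. Atrn is the expressed member that stayed within 2-fold in the comparisons of libraries made within each class. Capitals mark CG dinucleotides. The agouti window belongs to the start that RefSeq gives, which lies inside the gene as GENCODE bounds it, downstream of the first GENCODE start. It is chr2:155013320-155013619, and the Atrn window is chr2:130906245-130906544, both on the plus strand.
a: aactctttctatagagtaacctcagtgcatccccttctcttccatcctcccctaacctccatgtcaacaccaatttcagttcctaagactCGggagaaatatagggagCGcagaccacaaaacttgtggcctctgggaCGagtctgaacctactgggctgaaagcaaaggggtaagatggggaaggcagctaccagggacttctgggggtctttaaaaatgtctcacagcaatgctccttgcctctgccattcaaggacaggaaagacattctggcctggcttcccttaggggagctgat
Atrn: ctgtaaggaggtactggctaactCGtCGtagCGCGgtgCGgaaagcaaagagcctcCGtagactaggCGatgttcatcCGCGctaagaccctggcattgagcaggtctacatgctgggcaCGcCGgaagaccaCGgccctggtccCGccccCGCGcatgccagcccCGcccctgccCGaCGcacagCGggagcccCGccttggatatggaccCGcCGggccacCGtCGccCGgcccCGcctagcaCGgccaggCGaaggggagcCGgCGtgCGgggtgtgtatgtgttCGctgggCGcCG
The agouti window held 3 CG sites and the Atrn window 34, beside a median of 7 over 32851 mouse promoters of the same length. Windows with 3 or fewer made up 31.4% of promoters, and windows with 34 or more made up 7.73%. Searched on both strands, neither window, nor that of Mc1r, held the palindromic estrogen response element (GGTCA, any 3 bases, then TGACC, found in 0.0700% of promoters), the 6-base element AGGTCA (16.3%), TATAAA (13.6%), CAGCTG (16.3%) or a CArG box (1.63%). This says only that these letters are not in these windows.

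Cells were placed in classes by summed marker UMIs per 10000: basal at 20 or more of Acta2, Myh11, Mylk and Tagln, hormone-sensing at 10 or more of Esr1, Prlr, Areg and Foxa1, and secretory at 10 or more of Wfdc18, Csn3, Elf5 and Kit. The libraries held between 70781982 and 132660456 UMIs, and 25950 cells passed the filters, with median UMIs per cell from 6267.5 in Y541S giredestrant to 21927 in WT giredestrant. Basal cells numbered 4918, 1027, 3116 and 3843 in the order WT vehicle, WT giredestrant, Y541S vehicle, Y541S giredestrant, which is used for every list of 4 values below. Hormone-sensing cells numbered 692, 1185, 2313 and 2678, and secretory cells 751, 753, 1764 and 1472. Between 103 and 291 cells per library met more than 1 rule and stayed in each class. Levels and ratios of agouti, Atrn and Krt14 from cells that met 1 rule only are given where they differ by over 1.5 times. The labels name mature luminal cells as the source, whereas basal cells were the largest class in 3 of the libraries. The basal keratin gene Krt14, which the rule did not use, stood at 2662 to 3558 CPM (UMIs scaled to 1000000 UMIs of the class sum) in basal cells. It stood at 36.8 to 95.2 CPM in hormone-sensing cells of the first 3 libraries and at 838 CPM in those of Y541S giredestrant. In hormone-sensing cells of 1 rule only, the first 3 libraries stood at 28.1, 19.1 and 15.1 CPM. Across libraries, 81 barcodes occurred in 2 or more.

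In basal cells agouti was abundant in all 4 libraries and by far highest in Y541S vehicle. Its level was 1650 CPM (1640 to 1661) in WT vehicle, from 99825 UMIs, and 2212 CPM (2192 to 2232) in WT giredestrant, from 45832 UMIs. It was 6832 CPM (6807 to 6856) in Y541S vehicle, from 294793 UMIs, and 963 CPM (951.4 to 975.0) in Y541S giredestrant, from 25743 UMIs. The order of the levels was thus Y541S vehicle, WT giredestrant, WT vehicle and Y541S giredestrant, and no neighbouring intervals overlapped.

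The Y541S vehicle level was 4.14-fold that of WT vehicle, a log2 ratio of 2.05 (2.04 to 2.06). Of the 3 members with 20 or more UMIs over the pair of sums (agouti, Atrn and Mc1r), agouti was the only one at least 2-fold higher, beside 3.87% of 18282 genes, while 4.67% were lower. Agouti held rank 133 from the highest of those genes.

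Giredestrant and vehicle libraries differed in opposite directions in the 2 genotypes, and the difference between genotypes could not be tested. In Y541S the giredestrant library had the lower basal level, with a log2 ratio of -2.83 (-2.84 to -2.81), and the vehicle level was 7.09-fold the giredestrant level. Agouti was the only one of 3 measured members at least 2-fold lower, beside 3.91% of 17468 genes (7.84% were higher), and held rank 79 from the lowest. In wild type the giredestrant library had the higher level, with a log2 ratio of 0.42 (0.41 to 0.44). None of 3 members was 2-fold higher (8.35% of 17855 genes) or lower (5.23%), and the median gene of the comparison stood at 0.15.

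Within giredestrant, Y541S basal cells had less agouti than wild-type basal cells, with a log2 ratio of -1.20 (-1.22 to -1.18). Agouti was again the only one of 3 members at least 2-fold lower, beside 7.7% of 16826 genes (7.33% were higher), and held rank 822 from the lowest. These comparisons share libraries, and since agouti was chosen from these sums, nothing is read from the counts. With 1 library each, genotype or treatment and any feature of the single library cannot be told apart.

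**Figure D1:**
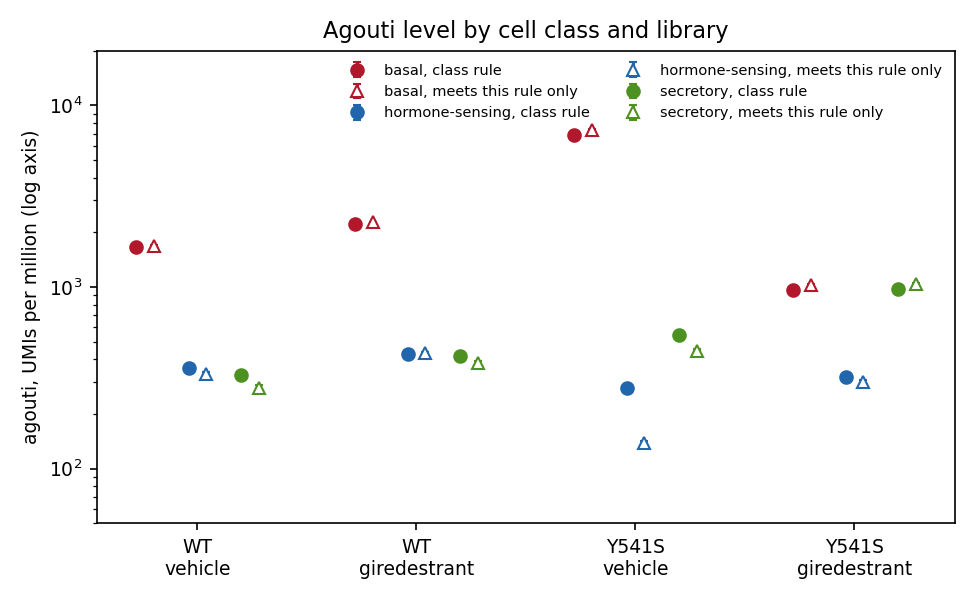
Agouti level (CPM, log axis) in each library by cell class, from all cells meeting the class rule (filled circles) and from cells meeting that rule only (open triangles); bars, mostly smaller than the symbols, are exact 95% counting intervals. Basal levels run from 963 to 6832 CPM, and in Y541S giredestrant the basal and secretory symbols lie at the same height.

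The distribution over basal cells showed that library means were made in different ways. In WT vehicle, 56.9% of basal cells held no agouti UMI and the median cell had 0, although a cell of median depth at the mean level would hold 17.4 UMIs. In WT giredestrant 28.2% held none and the median cell had 8 UMIs, beside 41.1 at the mean level. In Y541S vehicle 3.43% held none and the median cell had 63 UMIs, beside 84.9. In Y541S giredestrant 53.9% held none and the median cell had 0 UMIs, beside 5.43. At the depth of each library, agouti was therefore detected in a minority of basal cells in WT vehicle and Y541S giredestrant. In Y541S vehicle it was detected in almost every basal cell.

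The upper tail was long in all libraries. The 10% of basal cells with the most agouti UMIs held 71.9% of them in WT vehicle, 55.1% in WT giredestrant, 34.5% in Y541S vehicle and 70.2% in Y541S giredestrant. The highest single cells held 590, 935, 721 and 373 UMIs. Per 10000 UMIs, the 90th percentile cell stood at 51.9, 68.0, 175 and 25.7, and the 99th at 245, 202, 385 and 134. The ranges overlapped: the 99th percentile of each other library lay above the median of Y541S vehicle, 50.4 per 10000. Among cells with an agouti UMI the median was 17.5, 15.1, 52.6 and 9.72 per 10000. Deeper cells count as holders at lower levels, so the order of these medians is not read. With each cell thinned to 3000 UMIs, as below, the most common bin among holders was 10 to 29 UMIs in Y541S vehicle. It was 3 to 9 UMIs in the other libraries. The level among holders thus also differed between Y541S vehicle and the others, not the share of holders alone.

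Depth differed between libraries, so cells were thinned to 1 fixed number of UMIs. At 1000 UMIs, 29.3%, 45.4%, 86.4% and 28.99% of basal cells held agouti, and no cell was left out. At 3000 UMIs the shares were 36.6%, 58.7%, 93.7% and 41.8%, leaving out 83, 14, 38 and 706 shallower cells. Without thinning they were 43.1%, 71.8%, 96.6% and 46.1%. Y541S vehicle had the highest share at each depth and WT giredestrant the second.

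After thinning to 3000 UMIs, 63.4% of WT vehicle basal cells had no agouti UMI while 5.07% had 30 or more. In WT giredestrant these shares were 41.3% and 6.12%. In Y541S vehicle 6.30% had none and 26.2% had 30 or more, and the most common bin was 10 to 29 UMIs (38.3%). In Y541S giredestrant 58.2% had none and 1.498% had 30 or more. The variance over the mean was 37.5, 23.5, 26.1 and 19.5, where counting alone gives about 1, and the coefficient of variation was 2.65, 1.86, 1.08 and 2.60. Relative to its mean, agouti was most even over cells in Y541S vehicle.

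**Figure D2:**
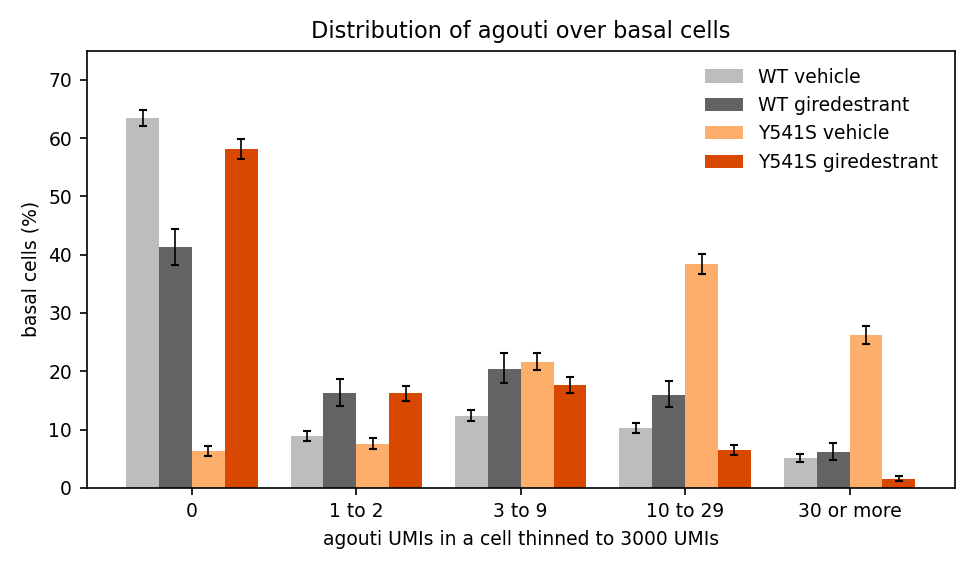
Share of basal cells (%) by the number of agouti UMIs after thinning each cell to 3000 UMIs, for the 4 libraries; bars start at 0 and whiskers are exact 95% binomial intervals. Most cells of Y541S vehicle hold 10 or more UMIs (38.3% at 10 to 29 and 26.2% at 30 or more), whereas the bin at 0 is the tallest in the other 3 libraries.

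Other features of the basal cells moved only weakly with agouti. Across basal cells of a library, the correlation of log agouti per 10000 with the summed contractile rule genes was 0.15, 0.16, 0.27 and 0.18, and with log UMIs 0.05, 0.06, -0.02 and 0.13. With the mitochondrial share it was -0.05, -0.13, -0.14 and -0.14. Of 6625 genes held by 10% or more of basal cells in every library, Acta2, which encodes smooth muscle actin, came first by its least extreme r (0.15 in WT vehicle, 0.30 in Y541S vehicle). The next were Igfbp2, Cnn1, Tpm2, Myl6, Tagln, Actg2 and Myl9, most of them genes of the contractile apparatus. The lowest were Malat1, mt-Rnr1, mt-Rnr2 and Col4a6. All points of a library share its depth and free RNA, and correlations this weak in sparse counts are given as a description only.

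Luminal cells also held agouti, at levels that differed less between libraries than in basal cells. Hormone-sensing cells stood at 356 CPM (348 to 364), 430 CPM (424 to 436), 276 CPM (272 to 280) and 321 CPM (314 to 327). The order was WT giredestrant, WT vehicle, Y541S giredestrant and Y541S vehicle. The library with the highest basal level was thus the lowest here. Cells that met the hormone-sensing rule alone stood at 139 CPM in Y541S vehicle and between 301 and 431 CPM in the other libraries.

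The hormone-sensing log2 ratio of giredestrant over vehicle was 0.27 (0.23 to 0.31) in wild type, where 21.6% of 16850 genes were at least 2-fold higher and 7.95% lower. In Y541S it was 0.21 (0.18 to 0.25), where 20.5% of 17756 genes were higher and 7.53% lower. The medians of all genes were 0.42 and 0.27. Y541S over WT was -0.37 (-0.40 to -0.33) with vehicle, where 4.03% of 16865 genes were lower and 5.75% higher. With giredestrant it was -0.42 (-0.46 to -0.39), where 13.2% of 17691 genes were lower and 15.8% higher. In cells of 1 rule only, giredestrant over vehicle in Y541S was 1.12, and Y541S over WT with vehicle was -1.25. The shares and medians of genes given here are from all cells meeting the class rule. No member with 20 or more UMIs over a pair of sums reached 2-fold in these 4 comparisons under the class rule.

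Secretory cells had their highest agouti in Y541S giredestrant, the library with the lowest basal level. Their level was 328 CPM (318 to 338), 419 CPM (411 to 427), 545 CPM (537 to 553) and 980 CPM (963 to 997). In this class the order was Y541S giredestrant, Y541S vehicle, WT giredestrant and WT vehicle, with no overlap of intervals.

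The secretory log2 ratio of giredestrant over vehicle was 0.35 (0.30 to 0.41) in wild type, where 6.7% of 15756 genes were at least 2-fold higher and 5.61% lower. In Y541S it was 0.85 (0.81 to 0.88), where 7.57% of 16044 genes were higher and 6.73% lower under the class rule. In cells of 1 rule only this Y541S ratio was 1.21. Y541S over WT was 0.73 (0.68 to 0.78) with vehicle, where 3.18% of 15912 genes were higher and 5.08% lower. With giredestrant it was 1.23 (1.19 to 1.26), and agouti was the only one of 2 measured members at least 2-fold higher, beside 7.09% of 15876 genes, while 11.3% were lower.

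The gap between basal and luminal cells therefore depended on the library. Basal over hormone-sensing, agouti stood 4.64-fold (4.53 to 4.75) higher in WT vehicle, 5.15-fold (5.06 to 5.23) in WT giredestrant, 24.7-fold (24.4 to 25.1) in Y541S vehicle and 3.005-fold (2.93 to 3.08) in Y541S giredestrant. In these libraries 27%, 19.3%, 21.3% and 15% of all genes were at least 2-fold higher in basal cells. In cells of 1 rule only, the Y541S vehicle value was 53.0-fold. Basal over secretory, agouti stood 5.03-fold, 5.28-fold and 12.5-fold higher in the first 3 libraries (17.3%, 16.2% and 16.1% of genes at least 2-fold higher). In Y541S giredestrant the ratio was 0.983 (0.962 to 1.004), where 17.5% of genes were at least 2-fold higher, and the basal and secretory levels did not differ beyond counting error.

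The shape of the distribution differed between basal and luminal cells. Thinned to 3000 UMIs, 41.4%, 46.3%, 24.7% and 42.0% of hormone-sensing cells and 44.8%, 45.3%, 47.8% and 70.2% of secretory cells held agouti. In WT vehicle these luminal shares lay above the basal share of 36.6% although the luminal CPM was lower, so no order is read from shares. Luminal cells with 30 or more UMIs were rare: none of 676 hormone-sensing cells of WT vehicle (an upper limit of 0.544%) and 0.141% of its secretory cells, beside 5.07% of its basal cells. In Y541S giredestrant secretory cells the 3 to 9 UMI bin was the most common (33.5%), so the raised mean there came with many cells of moderate level.

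Free RNA can give UMIs in cells that do not express a gene, so cells of other types in the same libraries were examined. With 3000 UMIs per cell, 3.13% to 5.88% of fibroblasts held agouti (35 to 51 cells per library before thinning, by collagen and decorin markers). Endothelial cells held it in 7.5% of 40 cells of WT vehicle and in none of 18, 10 and 23 cells elsewhere, with exact upper limits up to 30.8%. Macrophages and dendritic cells held it in 0% to 33.3% of 5 to 23 cells. Median UMIs were 6721 to 13175 in fibroblasts and 4393 to 5115 in endothelial cells, beside 5634 to 18559 in basal cells. The luminal shares lay above the fibroblast shares in all 4 libraries.

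Agouti was also set against basal keratin UMIs in each class. Per 100 UMIs of Krt5, Krt14 and Krt17, basal cells held 23.1, 38.2, 118 and 16.9 agouti UMIs. Hormone-sensing cells of 1 rule only held 574, 1170, 395 and 29.7, and secretory cells of 1 rule only held 153, 900, 558 and 981. Under the class rule the values were lower, at 183, 547, 184 and 28.1 in hormone-sensing cells and 61.1, 395, 255 and 340 in secretory cells. The ratio was higher in luminal than in basal cells of each library under both selections of cells. Fibroblasts held 13.7, 133 and 21.1 in WT vehicle, WT giredestrant and Y541S giredestrant, with no keratin UMI in Y541S vehicle. Macrophages and dendritic cells held 24, 82.1, 0 and 31.4, and endothelial cells 16.7, 15.4, 0 and 2.78. A ratio above the basal one was thus not confined to luminal cells. In these other types such ratios rested on only 3 to 70 keratin UMIs and 4 to 23 agouti UMIs. The part of free RNA in the luminal agouti was not tested.

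**Figure D3:**
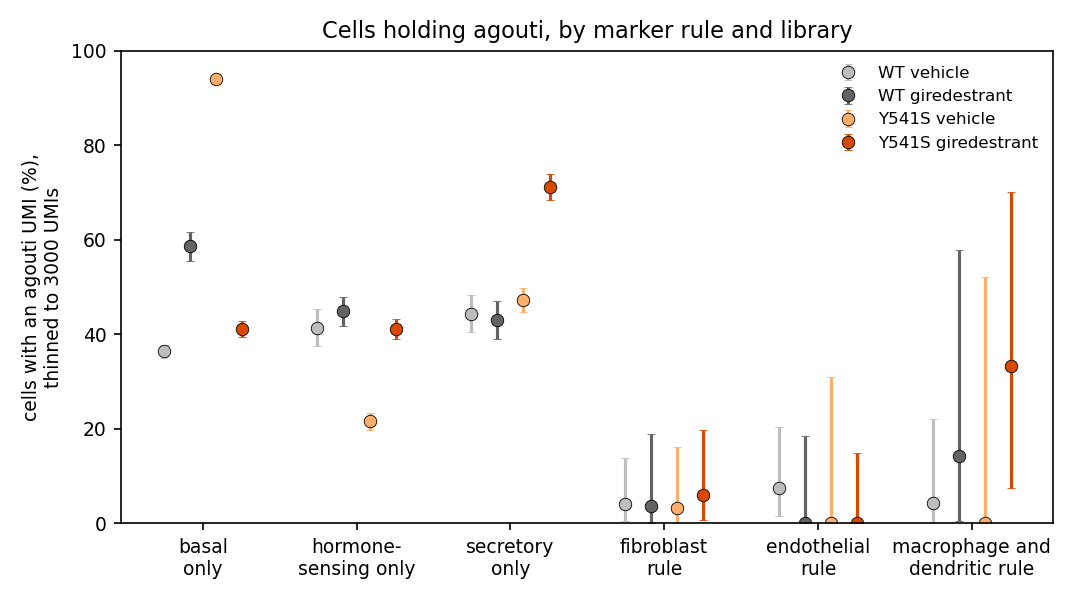
Share of cells (%) with at least 1 agouti UMI after thinning to 3000 UMIs, for cells meeting 1 epithelial rule only and for cells meeting fibroblast, endothelial, or macrophage and dendritic rules; whiskers are exact 95% binomial intervals. The epithelial points lie above the fibroblast points in every library, and the wide whiskers at right come from 5 to 40 cells.

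Within luminal classes agouti went with other genes. The divisions that follow were chosen after values had been seen and use cells of 1 rule only. Secretory cells with 10 or more UMIs per 10000 of the casein genes Csn2, Csn1s1 and Csn1s2a, which encode milk proteins, numbered 1025 in Y541S giredestrant and stood at 1166 CPM of agouti. The other 305 stood at 477 CPM, close to the 437 CPM of casein-low cells in Y541S vehicle. In WT vehicle 15 casein-high cells stood at 917 CPM and 665 casein-low cells at 259 CPM, and in Y541S vehicle 39 casein-high cells stood at 788 CPM. No secretory cell of WT giredestrant reached the casein threshold, and its 607 cells stood at 383 CPM. Median UMIs were 7283 in casein-high and 5989 in casein-low cells of Y541S giredestrant.

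Hormone-sensing cells with 10 or more keratin UMIs (Krt5, Krt14 and Krt17) per 10000 numbered 749 of 2479 in Y541S giredestrant, and their agouti stood at 538 CPM against 211 CPM in the others. In Y541S vehicle only 18 cells passed that threshold, at 693 CPM against 133 CPM in the others. The wild-type libraries had 9 and 4 such cells, at 403 CPM against 329 CPM with vehicle and 1993 CPM against 423 CPM with giredestrant. Agouti was thus higher beside basal keratins in the Y541S libraries, on few cells with vehicle. In WT vehicle the intervals overlapped (328 to 489 CPM against 321 to 337 CPM), and the WT giredestrant difference rests on 4 cells. Across these hormone-sensing cells the correlation of Krt14 with agouti was -0.04 in WT vehicle and 0.008 in WT giredestrant. It was 0.19 in Y541S vehicle and 0.31 in Y541S giredestrant. An association was therefore not shown in the wild-type libraries. The part that cells of mixed class play in these differences was not tested.

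Atrn, the attractin gene, was expressed in all 3 classes and stayed within 2-fold in the 4 comparisons of libraries made in each class. Y541S giredestrant was not compared with WT vehicle. Their hormone-sensing levels of Atrn, 84.7 and 37.1 CPM, lay over 2-fold apart. In basal cells it stood at 61.2 CPM (59.3 to 63.2), 72.7 CPM (69.1 to 76.5), 72.3 CPM (69.8 to 74.9) and 87.9 CPM (84.4 to 91.5). WT giredestrant and Y541S vehicle did not differ beyond counting error, with WT vehicle below and Y541S giredestrant above them. The 4 basal log2 ratios were 0.25 and 0.28 for giredestrant over vehicle in WT and Y541S, and 0.24 and 0.27 for Y541S over WT with vehicle and giredestrant. Atrn in basal cells thus did not share the swing of agouti, and across basal cells its correlation with agouti was -0.01, -0.03, -0.05 and 0.04.

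In luminal cells Atrn was highest in Y541S giredestrant. Hormone-sensing cells stood at 37.1, 55.0, 46.9 and 84.7 CPM, with log2 ratios of giredestrant over vehicle of 0.57 (0.45 to 0.69) in WT and 0.85 (0.78 to 0.93) in Y541S. Secretory cells stood at 95.6, 77.6, 90.9 and 129 CPM, with log2 ratios of -0.30 (-0.41 to -0.19) in WT and 0.50 (0.42 to 0.59) in Y541S. Secretory cells had more Atrn than hormone-sensing cells in all libraries, from 1.41-fold in WT giredestrant to 2.58-fold in WT vehicle.

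The receptors were near or at the floor of detection. Mc1r (chromosome 8, 123407107 to 123410744, plus strand) had 24, 36, 32 and 21 UMIs over all kept cells, of which 18, 11, 15 and 10 lay in basal cells, 3, 16, 7 and 9 in hormone-sensing cells and 1, 14, 8 and 3 in secretory cells. The basal levels were 0.298 CPM (0.176 to 0.470), 0.531 CPM (0.265 to 0.9499), 0.348 CPM (0.195 to 0.573) and 0.374 CPM (0.179 to 0.688), and all 4 intervals overlapped. Mc1r met the minimum of 20 UMIs in the 4 basal comparisons and in 1 of hormone-sensing cells, and reached 2-fold in none of them. Mc4r (chromosome 18, 66857704 to 66860506, minus strand) had no UMI in any kept cell of the 4 libraries, which allows levels of up to 0.0309, 0.0361, 0.0228 and 0.0437 CPM at 3 UMIs.

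The other genes of the pathway were taken as a list of 22, chosen with earlier results known. The ligands were scarce: Agrp, the paralog of agouti that acts in the hypothalamus, stood at 1.80 to 3.85 CPM in basal cells, and Pomc, which encodes the melanocortin precursor, had 7 to 21 UMIs there. Of the other receptor genes, Mc3r had no UMI in the 3 classes, Mc2r had at most 5 UMIs and Mc5r at most 3 in any class sum. The receptor accessory genes Mrap and Mrap2 had at most 2 and 7, and Corin, which encodes a protease that limits agouti action in the skin, at most 12. So among ligand and receptor genes, only agouti was abundant.

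The intracellular and membrane partners were detected throughout. Mgrn1, a ubiquitin ligase gene needed like Atrn for agouti pigment effects, stood at 27.2 to 30.3 CPM in basal and 41.1 to 54.6 CPM in luminal cells. Atrnl1, the attractin-like paralog, stood at 174, 199, 151 and 159 CPM in basal cells, 30.6, 55.4, 34.5 and 127 CPM in hormone-sensing cells and 226 to 267 CPM in secretory cells. Gnas, which encodes the stimulatory G protein alpha subunit, stood at 569 to 876 CPM.

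In basal cells, 1 of 16 measured list genes (Mitf) was at least 2-fold higher and 1 (Pcsk1) lower in WT giredestrant over WT vehicle, beside 8.35% and 5.23% of all genes, with a median log2 ratio of 0.16 beside 0.15 over all genes. In Y541S, 1 of 17 was higher and none lower with giredestrant, beside 7.84% and 3.91% of all genes (median 0.25 beside 0.07), and Cpe, a prohormone-processing carboxypeptidase gene, was that one (4.52 and 23.0 CPM). For Y541S over WT, none of 16 was higher and 1 (Agrp) lower with vehicle, beside 3.87% and 4.67% of all genes. With giredestrant 2 of 15 (Cpe and Pcsk1) were higher and none lower, beside 7.33% and 7.7%. Both Pcsk1 differences rest on 2 UMIs in WT giredestrant, beside 44 in WT vehicle and 18 in Y541S giredestrant. In hormone-sensing cells, 5 of 15 list genes were higher in Y541S giredestrant than in Y541S vehicle and none lower, beside 20.5% and 7.53% of all genes, with a median of 0.68 beside 0.27. They were Cpe (2.65 and 241 CPM), Atrnl1 (log2 ratio 1.88), the heparan sulfate proteoglycan gene Sdc3 (1.98 and 13.3 CPM) and the adenylyl cyclase genes Adcy3 and Adcy9. With giredestrant, 5 of 15 (Cpe, Sdc3, Atrnl1, Adcy3 and Adcy7) were higher and Pomc was lower in Y541S than in WT, beside 15.8% and 13.2% of all genes. In wild type Pomc was higher and Adcy3 lower with giredestrant (21.6% and 7.95% of all genes), and with vehicle Cpe was higher and Adcy3 lower in Y541S than in WT (5.75% and 4.03%). The Pomc differences rest on 8, 46 and 10 UMIs in WT vehicle, WT giredestrant and Y541S giredestrant. In secretory cells no list gene of 13 was 2-fold higher in any comparison, and those lower were Cpe and Adcy7 with giredestrant in WT, Cpe in Y541S vehicle against WT vehicle, and Sdc3 in both comparisons of Y541S giredestrant. Between 3.18% and 7.57% of all genes were higher and between 5.08% and 11.3% lower in these secretory comparisons, so the list counts lay near the background.

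**Figure D4:**
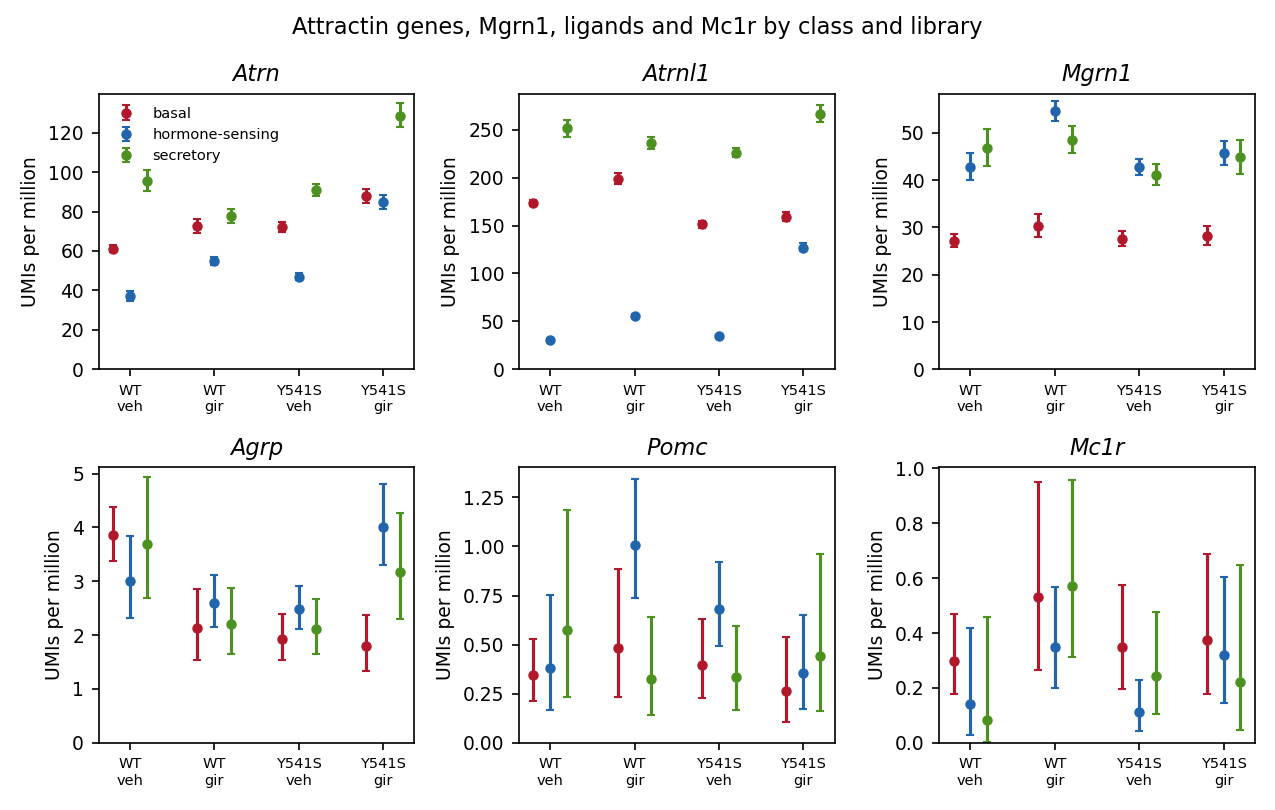
Levels (CPM, linear axes from 0) of Atrn, its paralog Atrnl1, Mgrn1, the ligand genes Agrp and Pomc, and Mc1r in the 3 classes of each library (veh, vehicle; gir, giredestrant); bars are exact 95% counting intervals. Atrn in basal cells lies between 61.2 and 87.9 CPM, and Mc1r lies below 1 CPM everywhere.

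The genes around agouti did not show differences of its size. Raly, an RNA-binding protein gene that overlaps agouti on the same strand, stood at 205, 287, 219 and 248 CPM in basal cells. Eif2s2, a translation initiation factor gene overlapping on the opposite strand, stood at 409, 272, 367 and 376 CPM. Outside the gene, Chmp4b stood at 191 to 203 CPM, Itch at 91.1 to 128 CPM and Ahcy at 6.35 to 10.6 CPM. Dynlrb1 stood at 118, 113, 117 and 78.8 CPM and Map1lc3a at 262, 221, 239 and 180 CPM. Both were lowest in Y541S giredestrant, as agouti was. None of these neighbours reached 2-fold between libraries. How reads in the shared stretch of agouti and Raly were assigned is not given in the sources used here, and the Raly level in Y541S vehicle lay within 2-fold of that in the other libraries.

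**Figure D5:**
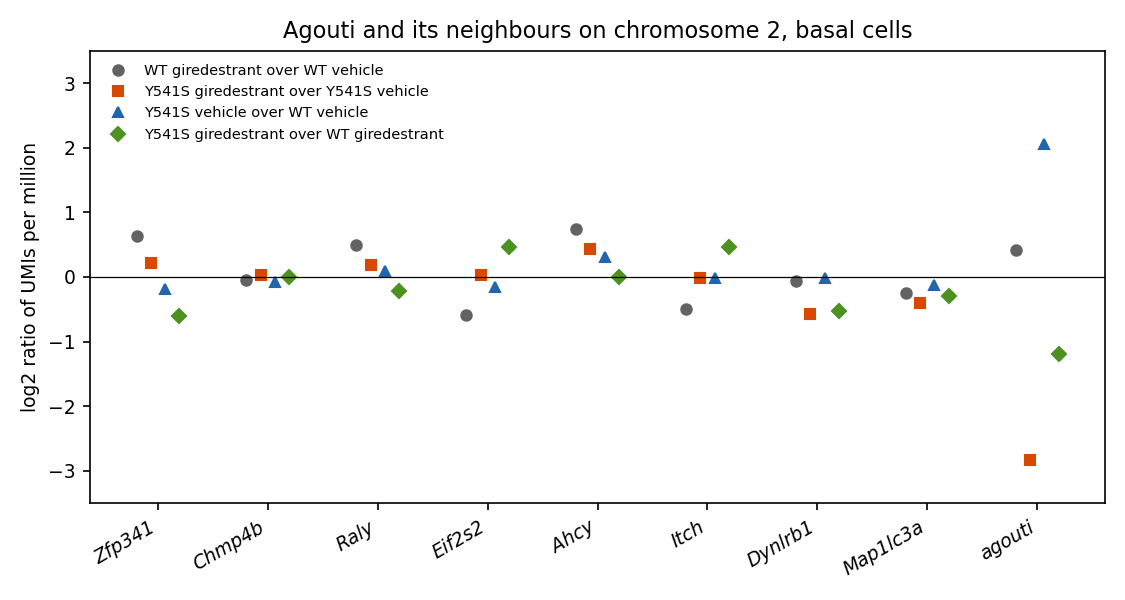
Log2 ratio of CPM in basal cells for agouti (right) and for the neighbouring genes with 20 or more UMIs per library, in order along chromosome 2, with 1 symbol for each of the 4 comparisons of libraries. Agouti spans -2.83 to 2.05, while all neighbours lie within 1 of 0.

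Over the 12 sums of 3 classes in 4 libraries, the gene most like agouti by Pearson correlation of log2(CPM + 1), among 8834 genes, was Ube2a, a ubiquitin-conjugating enzyme gene (r = 0.92). Next came mt-Nd4 (0.88) and Ttc7b, Lrfn5, Nkd2, Pde3a and Dysf (each 0.87). The range of Ube2a was small (57.4 to 103 CPM), so likeness in shape did not mean likeness in size. The unnamed transcript 9530059O14Rik (0.87) came closest in size, at 3.64, 10.6, 35.6 and 0.337 CPM in basal cells, again highest in Y541S vehicle and lowest in Y541S giredestrant. The 12 sums share libraries and depth, so these values are a description.

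Markers of cells in which agouti is well known were examined in the basal sums. The dermal papilla list (Corin, Alx4, Crabp1, Hhip and Rspo3) summed to 1.97, 0.724, 0.881 and 2.24 CPM, and all 5 genes had at least 1 UMI. The melanocyte list summed to 121, 64.0, 77.7 and 99.3 CPM, of which Sox10, a gene that mammary epithelium also expresses, gave 120, 63.1, 77.0 and 98.4 CPM. The pigment genes Dct, Tyr, Tyrp1, Pmel and Mlana were near or at 0, with Dct at 0 in WT giredestrant and Y541S vehicle. The fibroblast list (6 of 6 genes detected) summed to 149, 299, 257 and 389 CPM, highest where agouti was lowest, and its part in the agouti values was not tested. The keratinocyte and hair follicle list summed to 18.2 to 31.9 CPM. None of these lists was highest in Y541S vehicle, the library with the most agouti. Among markers of the luminal classes, the secretory list (6 of 6 genes detected) was highest there, summing to 144, 123, 407 and 171 CPM in basal cells, and the hormone-sensing list (7 of 7) summed to 122, 180, 309 and 317 CPM. In cells that met the basal rule only, agouti in Y541S vehicle stood at 7349 CPM.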

How the data were processed

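Single-cell libraries were made with the 10x Genomics v3.1 3′ kit, per the labels' protocols. The authors deposited raw UMI counts per gene and barcode, made with Cell Ranger 6.0.1 per the file headers, with GRCm38 per the submitters' processing notes. The other deposited files list barcodes and genes as text. The annotation release and the handling of intronic reads are not given in the sources used here.

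Barcodes were kept from a minimum of 1000 UMIs and 500 genes, with a mitochondrial share no higher than 15%, and counts were summed per class and library and scaled to CPM. Levels carry exact Poisson intervals, ratios exact conditional binomial intervals and shares of cells exact Clopper-Pearson intervals. No doublets were removed; removal of the highest Scrublet scores (scanpy 1.11.5, 0.8% per 1000 cells) was an alternative, as were TMM factors (edgeR 4.0.16), scaling to the median gene, doubled thresholds and cells of 1 rule only. The share of genes at least 2-fold apart was taken over genes with 20 or more UMIs in the pair of sums. The ratio calculation was tested on simulated counts. Named genes are the members, the pathway list, the 4 nearest protein-coding genes on each side of agouti and the most alike genes by rule. The members and lists were chosen with earlier results of these data known.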

Additional observations from a re-analysis of the deposited data

Results flagged for a closer look

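Agouti in basal cells had opposite signs for giredestrant over vehicle in the 2 genotypes, with a log2 ratio of 0.42 in WT and -2.83 in Y541S. Atrn in secretory cells also had opposite signs, with -0.30 in WT and 0.50 in Y541S. Each value compares 1 library with 1 library, and the difference between genotypes was not tested.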

How the results depend on the processing

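No paired analysis was possible because each group is 1 library. For agouti the settings were run on the basal ratios between libraries and on basal over luminal ratios, and for Atrn on ratios between libraries. No agouti or Atrn ratio checked changed direction, except agouti basal over secretory in Y541S giredestrant. That went from a log2 ratio of -0.03, within counting error of 0, to 0.050 with doubled thresholds. Luminal agouti ratios between libraries were not rescaled. In hormone-sensing cells, giredestrant over vehicle, agouti (0.27 in WT and 0.21 in Y541S) lay below the median gene (0.42 and 0.27). Relative to the median gene both ratios would fall below 0. For agouti in basal cells (ratios in the order giredestrant over vehicle in WT and in Y541S, then Y541S over WT with vehicle and with giredestrant), the settings that moved the log2 ratio beyond its counting interval gave 0.27, -2.93 and -1.14 with TMM factors (the third ratio did not move), and 0.27, -2.90, 2.03 and -1.12 relative to the median gene. Basal cells defined by keratins without a luminal rule, chosen after seeing the data, gave 0.46, -2.79, 2.12 and -1.13. Doublet removal gave -2.87, 2.12 and -1.17 for the last 3, doubled thresholds gave -2.78 and -1.15 for the second and the fourth, and cells of 1 rule only gave 2.12 and -1.15 for the last 2. Basal over hormone-sensing log2 ratios in the 4 libraries were 2.36, 2.40, 5.73 and 1.76 in cells of 1 rule only, 2.34, 2.43, 5.67 and 1.74 after doublet removal, and 2.36, 2.44, 4.90 and 1.92 with doubled thresholds. Basal over secretory ratios in the first 3 were 2.61, 2.57 and 4.04, then 2.44, 2.47 and 4.02, then 2.40, 2.48 and 3.73 in the same order of settings. Shares of basal cells with agouti moved from 1000 UMIs to 36.6%, 58.7%, 93.7% and 41.8% at 3000 and to 43.1%, 71.8%, 96.6% and 46.1% without thinning, the last chosen after seeing the data. Of the Atrn ratios, 65 stayed within their counting interval and 11 moved. Of the shares of genes 2-fold apart, 7 stayed and 17 moved. Leaving out barcodes shared between libraries, also added later, moved no agouti ratio. Mc1r in basal cells, giredestrant over vehicle in Y541S, went from 0.11 to -0.05 in cells of 1 rule only (9 and 15 UMIs). Depth limited Mc1r and Mc4r, whose levels between libraries were not distinguishable. With 1 library per group, no setting replaces a replicate.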

Other observations

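Cells that met none of the 3 class rules also held agouti, at 249 CPM in WT vehicle, 1058 CPM in WT giredestrant, 1727 CPM in Y541S vehicle and 601 CPM in Y541S giredestrant. Among them, cells with basal keratins stood at 704, 2995, 4419 and 1108 CPM in the same order, from 203, 62, 87 and 302 cells.

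Within basal cells, divisions chosen after values had been seen showed modest differences. Cells with 10 or more UMIs per 10000 of Slpi, a protease inhibitor gene, stood at 1934 CPM of agouti against 1417 CPM in the others in WT vehicle and at 7247 against 6708 CPM in Y541S vehicle. In WT giredestrant the values were 2199 and 2215 CPM. In Y541S giredestrant they were 501 and 979 CPM, the reverse order, with 162 cells above the threshold. The share of cells with agouti was lower above the Slpi threshold in every library (39.3% against 47.1% in WT vehicle), where median UMIs were lower too. Across basal cells the correlation of Slpi with agouti was -0.02, -0.04, -0.01 and -0.05. Cells with at least 1 UMI per 10000 of Lgr5, a stem cell marker gene, and cells below that level stood at 1646 and 1653 CPM in WT vehicle, 2414 and 2140 CPM in WT giredestrant, 6935 and 6807 CPM in Y541S vehicle, and 910 and 981 CPM in Y541S giredestrant. A smaller share of the cells at or above the Lgr5 level held agouti in every library (65.7% against 74.5% in WT giredestrant). These shares were not thinned. Median UMIs at or above that level were lower in WT vehicle, WT giredestrant and Y541S vehicle. In Y541S giredestrant they were higher (6078.5 against 5451). The correlation of Lgr5 with agouti was -0.04, -0.04, -0.03 and -0.07.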
